A study of Homo sapiens with 24 samples.

Results

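A set of 8 genes was picked from the 14413 genes listed for Panc-1 cells for large changes of their RNA when the pancreatic transcription factor PTF1a was induced. They are SLCO2B1, CHRNA1, TMEM51-AS1, KIAA1161 and NAV1, which were higher with PTF1a (5 genes), and LXN, DIO3 and UPK1B, which were lower (3 genes). The Dox and Control levels of the Tet-PTF1a line chose them, so those levels are given as a description, with no test. The question asked of the other lines was whether each gene was on, off or somewhere between.

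Panc-1 is a human pancreatic ductal adenocarcinoma cell line. Polyadenylated RNA was sequenced from 3 Panc-1 lines grown without (Control) or with doxycycline (Dox, 1 µg/ml) for 72 h, in 4 libraries of each of the 6 groups, 24 in all. Tet-One carried the empty plasmid (passage 32), Tet-MIST1 the open reading frame of rat MIST1 (passage 33) and Tet-PTF1a that of mouse PTF1a (passage 32). Both factors had a myc tag and stood behind a doxycycline-regulated promoter, and all 3 lines, Controls included, were stable transformants that had been selected with puromycin and picked as individual clones. Differences between lines therefore cannot be told apart from differences between clones, nor, where Tet-MIST1 is compared, from passage.

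PTF1a and MIST1 are basic helix-loop-helix (bHLH) factors of pancreatic acinar cells, the cells that make digestive enzymes. bHLH factors bind as dimers to a short DNA element, the E-box, with the letters CANNTG. PTF1a acts in a complex with a common bHLH partner and RBPJ or RBPJL, which reads the letters TGGGAAA close to the E-box, and is needed to make the acinar lineage, whereas MIST1 raises the secretory capacity of mature acinar cells.

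None of the 8 genes is an acinar enzyme gene. SLCO2B1 encodes a membrane carrier of organic anions such as steroid sulfates. CHRNA1 encodes the alpha subunit of the nicotinic acetylcholine receptor of muscle. TMEM51-AS1 is a non-coding RNA transcribed away from the gene TMEM51. KIAA1161, now named MYORG, encodes a membrane-bound glycosidase of the endoplasmic reticulum. NAV1, a neuron navigator, binds microtubules. LXN encodes latexin, an inhibitor of metallocarboxypeptidases. DIO3 encodes the deiodinase that inactivates thyroid hormone and lies at the end of an imprinted region. UPK1B encodes a tetraspanin of the plaques on the bladder epithelium.

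The DNA before the start of the upward genes is shown because PTF1a binds a known element. These genes were chosen for their rise with PTF1a, and binding of PTF1a to this DNA was not measured here. All 8 genes were matched to the RefSeq promoters (GRCh38.p14), which gave 10 start sites, and the 250 bases before each start were found on GRCh37 (hg19), the build of the deposited tables, by an exact match. The letters CAGCTG, an E-box that reads the same on both strands, were found before at least 1 start of 4 of the 5 upward genes and before none of the 3 starts of the downward genes. The same letters were in 14.0% of all 35116 RefSeq promoters of this length, and in any promoter of 16.7% of 27305 genes. The 30 bases around each CAGCTG, given 5′ to 3′ on the strand of the gene with the element in capitals, were the following.
SLCO2B1, second start (chr11:74870706-74870735, + strand): ccattcagtgacCAGCTGacccccaataca
CHRNA1 (chr2:175629258-175629287, - strand): ctgagggcagccCAGCTGtcgctcccacaa
TMEM51-AS1 (chr1:15479016-15479045, - strand): gaagccgataggCAGCTGgctggcgtcaca
NAV1, second start (chr1:201708950-201708979, + strand): tcactttaagtaCAGCTGgagccgtaagta

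The element began 159 bases before the second start of SLCO2B1, 75 before that of CHRNA1, 73 before that of TMEM51-AS1 and 66 before the second start of NAV1. The stretch of TMEM51-AS1 overlapped a listed exon of TMEM51 on the other strand, and that of NAV1 a listed exon of NAV1 itself. The second starts of SLCO2B1 and NAV1 lay 8845 and 91578 bases after the first base listed for these genes, and counts per gene do not show which start was used.

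CHRNA1, which was at or near 0 without PTF1a, and KIAA1161, the upward gene without an E-box in this window, are shown in full over the 250 bases before the start, with every CANNTG in capitals.
CHRNA1 (chr2:175629201-175629450, - strand): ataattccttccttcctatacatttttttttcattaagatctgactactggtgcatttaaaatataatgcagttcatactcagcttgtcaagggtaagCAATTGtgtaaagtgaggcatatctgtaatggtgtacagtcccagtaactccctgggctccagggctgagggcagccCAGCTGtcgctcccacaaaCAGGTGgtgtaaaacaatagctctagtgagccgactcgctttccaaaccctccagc
KIAA1161 (chr9:34376897-34377146, - strand): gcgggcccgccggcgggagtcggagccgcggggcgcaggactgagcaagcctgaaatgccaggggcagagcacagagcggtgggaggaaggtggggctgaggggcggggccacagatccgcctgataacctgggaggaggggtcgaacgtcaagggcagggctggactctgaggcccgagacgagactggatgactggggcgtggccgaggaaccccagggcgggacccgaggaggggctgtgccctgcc

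CHRNA1 held 3 E-boxes, UPK1B held 4 and LXN and DIO3 held 1 each, where 61.8% of all promoters held at least 1. CATCTG, read on both strands, was in the promoter of UPK1B and in 12.2% of all promoters. TGGGAAA, read on both strands, was in none of the 10 windows and in 6.88% of all, and CANNTG with TGGGAAA at midpoints 10 to 12 or 20 to 22 bases apart was in 0.222% of all. CAGCTG and CATCTG are forms of CANNTG and are counted under both. A match is a match of letters and not a measured binding site.

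Libraries held between 17210989 and 43018494 counts, and the Tet-PTF1a Dox libraries were the shallowest group (median 20061501). Reads at the human PTF1A locus followed the label of the Tet-PTF1a line, with 2, 1, 0 and 2 counts in Control and 95, 148, 53 and 168 with Dox. The plasmid carried the mouse sequence, so the origin of these reads cannot be told apart. BHLHA15, the human MIST1 gene, had 16, 8, 2 and 6 counts in Tet-PTF1a Control and 12, 13, 14 and 22 with Dox. Its edgeR log2 fold change was 1.11. Each of these Control libraries lay below the level that the authors used as their filter, and each Dox library above it. BHLHA15 therefore entered the fit only through Dox libraries, so no test is given for it. It was not analysed here in Tet-MIST1. Of 10 ductal and epithelial markers, 8 had a row, and their summed level was 3385 to 3550 CPM (counts scaled to a common library size) in Tet-PTF1a Control and 1716 to 1768 CPM with Dox. Of 9 fibroblast markers 4 had a row in Tet-PTF1a (152 to 159 CPM in Control and 78.3 to 81.0 CPM with Dox), of 7 immune markers 3 (61.8 to 67.3 and 30.6 to 35.5 CPM), and of 13 acinar markers 4, PTF1A included (37.8 to 39.1 and 79.3 to 86.5 CPM). The immune sum was 252 to 258 CPM in Tet-MIST1 Control and 105 to 116 CPM in Tet-One Control. The defining markers PTPRC, CD3E, COL1A2 and PDGFRA had no row, nor had any endothelial marker (0 of 5). All these sums moved with Dox in Tet-PTF1a, and their part in the levels of the 8 genes was not tested. In Tet-One Dox replicate 1, levels fell by 0.381 on the log2 scale per doubling of exon length against the other 3 libraries of its group, and in Tet-MIST1 Dox replicate 1 by 0.141, and both are named where they touch a result.

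Levels are given in CPM scaled by 1 set of TMM factors over the 13519 genes listed in all 3 tables, as mean ± SD over 4 libraries. A gene is called off in a group where its mean was under 0.5 CPM, the level that the authors used as their filter. In such bulk libraries, fewer cells that express a gene and less of its RNA per cell cannot be told apart. Of the 8 genes, 4 changed state between Tet-PTF1a Control and Dox. SLCO2B1 and CHRNA1 went from off to on (2 genes) and DIO3 and UPK1B from on to off (2 genes). These levels chose the genes, and the share of all genes that changed state was not computed. SLCO2B1 and CHRNA1 were under 0.5 CPM in every Tet-PTF1a Control library, so they passed the authors' filter only through Dox libraries. The other 4, TMEM51-AS1, KIAA1161, NAV1 and LXN, were on in both groups, so the word switch describes a change of level for them and not a change of state. Control and Dox libraries did not overlap for any of the 8 genes, and they did not overlap for 42.1% of all genes in this line.

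**Figure D1:**
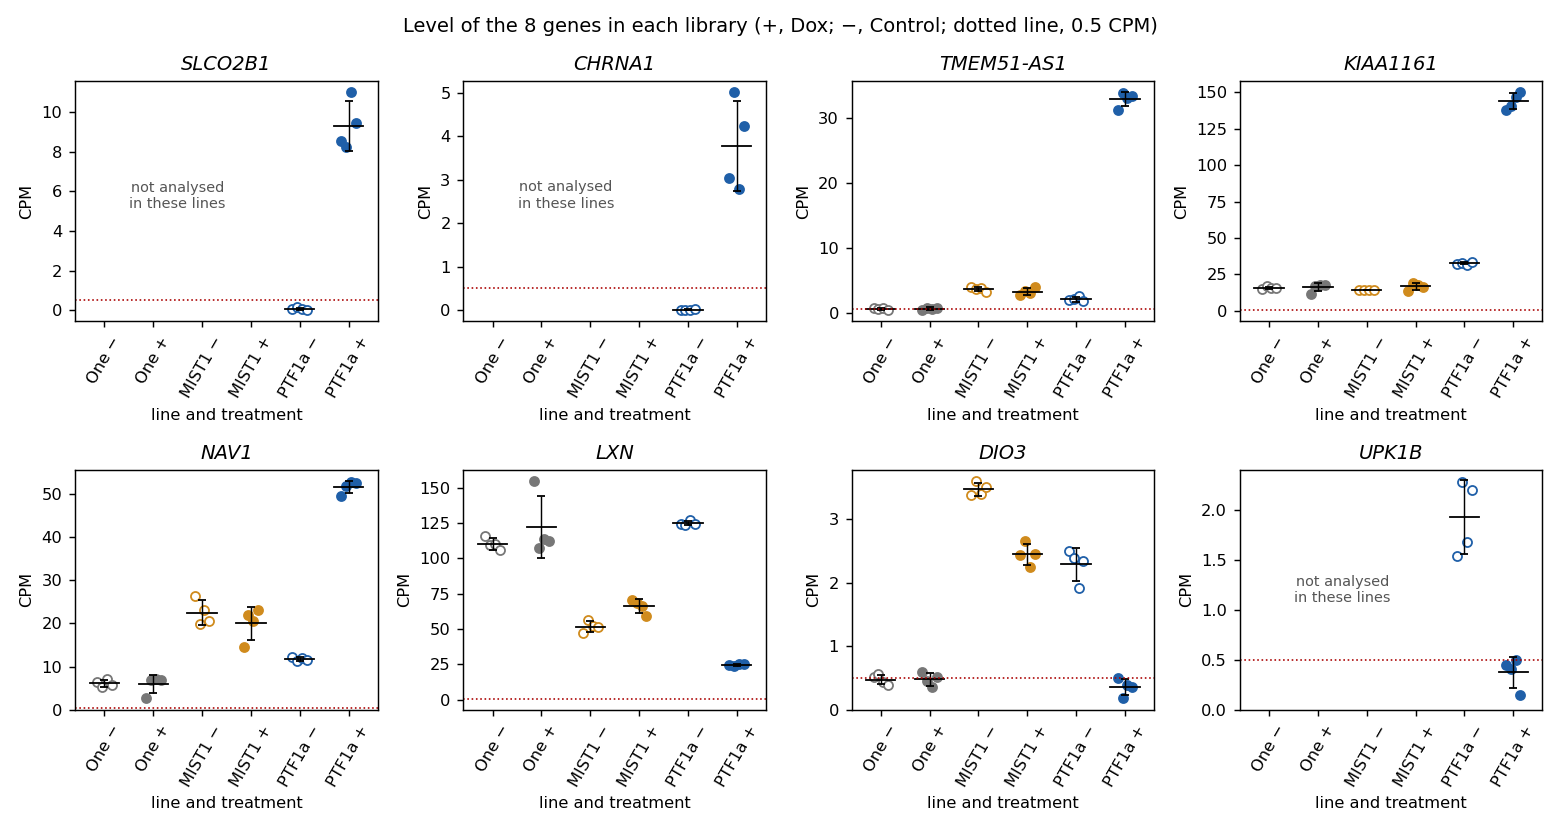
Level of each of the 8 genes (CPM, linear axes) in the 6 groups, with a point per library, a bar at the mean and whiskers of ± SD (n = 4). SLCO2B1 and CHRNA1 lie at or near 0 in Tet-PTF1a Control, TMEM51-AS1, KIAA1161 and NAV1 are highest in Tet-PTF1a Dox, and DIO3 lies under or near the dotted line at 0.5 CPM in both Tet-One groups as in Tet-PTF1a Dox.

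SLCO2B1 (chr11:74862032-74917445, + strand, 15 exon intervals) had 2, 3, 1 and 1 counts in Tet-PTF1a Control. With Dox it had 154, 180, 221 and 320 counts. The mean level went from 0.0705 ± 0.0623 to 9.31 ± 1.25 CPM (n = 4 each). The pooled counts, scaled for depth, stood in a ratio of 163 (95% exact interval 78.6 to 405, counting error only). The edgeR log2 fold change, which the low counts shrink, was 6.16 (SE 0.225), the highest of the 14053 genes tested in this line.

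CHRNA1 (chr2:175612323-175629200, - strand, 10 exon intervals) had 0, 0, 0 and 1 counts in Control. Dox libraries had 55, 110, 56 and 144 counts, which are 3.05, 5.02, 2.79 and 4.25 CPM. The Dox mean was 3.78 ± 1.04 CPM (n = 4), and the pooled ratio of 475 rested on 1 Control count (95% exact interval 84.6 to 18796, counting error only). The spread of the Dox libraries (CV 27.6%) was wider than counting alone gives (10.8%), with replicates 2 and 4 above replicates 1 and 3. Its log2 fold change of 5.58 (SE 0.446) was the 2nd highest.

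TMEM51-AS1 (chr1:15438311-15478960, - strand, 5 exon intervals) was at 1.86, 2.01, 2.59 and 1.76 CPM in Tet-PTF1a Control. With Dox it was at 31.2, 33.8, 33.0 and 33.3 CPM. The means of 2.05 ± 0.369 and 32.8 ± 1.12 CPM gave a log2 fold change of 4.01 (SE 0.0768), the 13th highest.

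KIAA1161 (chr9:34366664-34376894, - strand, 2 exon intervals) was at 32.4, 32.9, 31.8 and 33.9 CPM in Tet-PTF1a Control. With Dox it was at 138, 141, 147 and 150 CPM, a log2 fold change of 2.14 (SE 0.0329). NAV1 (chr1:201617450-201796102, + strand, 31 exon intervals) was at 12.1, 11.3, 12.1 and 11.5 CPM in Control. With Dox it was at 49.5, 51.7, 52.7 and 52.4 CPM, a log2 fold change of 2.13 (SE 0.0460). By pooled counts KIAA1161 was 4.41-fold and NAV1 4.38-fold higher, from Control levels that were already well above the 0.5 CPM limit.

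LXN (chr3:158384203-158390482, - strand, 6 exon intervals) was at 125, 124, 127 and 124 CPM in Tet-PTF1a Control. With Dox it was at 24.3, 23.9, 25.4 and 25.3 CPM, a log2 fold change of -2.33 (SE 0.0341). Per kilobase of listed exons, LXN was the most abundant of the 8 genes in Control, at 112 CPM per kb, higher than 96.7% of the genes, and at 22.2 CPM per kb with Dox it was still higher than 76.3% of them. Its lower level was therefore far from an off state.

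DIO3 (chr14:102027688-102029789, + strand, 1 exon interval) had 109, 44, 40 and 92 counts in Tet-PTF1a Control. With Dox it had 9, 4, 8 and 12 counts, and its mean went from 2.29 ± 0.257 to 0.359 ± 0.132 CPM (log2 -2.49, SE 0.226). UPK1B (chr3:118892425-118924000, + strand, 8 exon intervals) had 67, 42, 35 and 86 counts in Control. With Dox it had 8, 9, 10 and 5 counts, and its mean went from 1.92 ± 0.369 to 0.375 ± 0.156 CPM (log2 -2.23, SE 0.258). Both genes were low to begin with, at 1.09 and 0.934 CPM per kb, and the few counts left with Dox set the width of their errors.

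Among all genes tested in Tet-PTF1a, DIO3 had the 2nd, LXN the 4th and UPK1B the 5th lowest log2 fold change, and KIAA1161 and NAV1 the 66th and 67th highest. In this line 23.8% of the genes tested were called higher and 24.4% lower at FDR under 0.05, with a median log2 fold change of 0.00 over all genes.

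The other lines were examined next. SLCO2B1, CHRNA1 and UPK1B had a row in the Tet-PTF1a table alone and were not analysed here in Tet-One and Tet-MIST1. The other 5 genes had a row in all 3 tables, and these 5 genes in the 4 groups of Tet-One and Tet-MIST1 gave 20 levels, of which 18 were on. DIO3 in Tet-One Control and Dox made up the other 2. No gene had a different state in Control and Dox of either line (0 of 5). The authors' stated filter for listing a gene used the same 0.5 CPM limit, so a listed gene was likely to be on. The share of all listed genes that was on was not computed. In Tet-One both TMEM51-AS1, called on (0.585 and 0.612 CPM), and DIO3, called off (0.478 and 0.480 CPM), lay close to this limit.

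In Tet-One, the empty plasmid, none of the 5 genes was called with Dox by the quasi-likelihood test of edgeR, and 0% of the 13428 genes tested were. Before adjustment, 401 genes (2.99%) had a p under 0.05, and DESeq2 and the exact test of edgeR called 0 as well. TMEM51-AS1 was at 0.651, 0.613, 0.694 and 0.384 CPM in Control and 0.350, 0.754, 0.599 and 0.742 CPM with Dox. The 2 groups overlapped and straddled the 0.5 CPM limit, and the log2 change of 0.06 had a 95% interval of -0.49 to 0.60. KIAA1161 was at 15.8 ± 0.833 and 16.2 ± 2.88 CPM (log2 0.04, interval -0.22 to 0.30). NAV1 was at 6.18 ± 0.809 and 5.90 ± 2.10 CPM (log2 -0.06, interval -0.59 to 0.46). LXN was at 110 ± 4.35 and 122 ± 22.03 CPM (log2 0.15, interval -0.08 to 0.38). Control and Dox libraries overlapped for all 5 genes, and they did not for 2.42% of the genes of this line.

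DIO3 was at 0.478 ± 0.0784 CPM in Tet-One Control and 0.480 ± 0.1003 CPM with Dox, 13 to 22 counts in each library. The log2 change of 0.01 had an interval of -0.41 to 0.43. For DIO3 the spread between Tet-One libraries (CV 16.4% in Control and 20.9% with Dox) was no wider than counting alone gives (23.3% and 23.9%). Over all genes, the biological coefficient of variation was 14.4% in Tet-One whereas Tet-MIST1 had 6.58% and Tet-PTF1a 2.80%. In Tet-One Dox replicate 1, the library with the trend over exon length, NAV1 (13265 bases of exon) was at 2.75 CPM where the others were at 6.87 to 7.03, and LXN (1116 bases) was at 155 CPM where the others were at 108 to 114.

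In Tet-MIST1, 2 of the 5 genes were called with Dox, where 20.6% of the 13623 genes tested were. DIO3 was at 3.37, 3.61, 3.39 and 3.50 CPM in Control and at 2.44, 2.65, 2.25 and 2.45 CPM with Dox. The groups did not overlap, and DIO3 fell by 0.50 on the log2 scale (SE 0.0879, adjusted p = 0.00241, edgeR). The level with Dox, 2.45 ± 0.166 CPM, stayed above the limit and overlapped that of Tet-PTF1a Control.

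LXN was at 47.0, 56.3, 51.8 and 51.2 CPM in Tet-MIST1 Control and at 70.4, 68.7, 66.3 and 58.9 CPM with Dox. It rose by 0.35 on the log2 scale (SE 0.0665, adjusted p = 0.00405, edgeR), with no overlap, while its log2 difference in Tet-PTF1a was -2.33. Libraries of Control and Dox did not overlap for 26.4% of the genes in Tet-MIST1. Both genes were also called without Tet-MIST1 Dox replicate 1 and with the trend over exon length removed, where LXN rose by less, 0.23 on the log2 scale (adjusted p = 0.0172, edgeR).

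The 3 upward genes were not called in Tet-MIST1. TMEM51-AS1 was at 3.62 ± 0.327 CPM in Control and 3.20 ± 0.517 CPM with Dox (log2 -0.19, interval -0.42 to 0.05, adjusted p = 0.269 in edgeR). NAV1 was at 22.5 ± 2.96 and 20.02 ± 3.76 CPM (log2 -0.17, interval -0.43 to 0.08, adjusted p = 0.356 in edgeR). KIAA1161 was at 14.4 ± 0.217 and 16.8 ± 2.34 CPM (log2 0.22, interval 0.05 to 0.39, adjusted p = 0.0919 in edgeR). Without Tet-MIST1 Dox replicate 1, where it was at 13.8 CPM against 16.1 to 19.2 CPM in the other 3, KIAA1161 was called at a log2 change of 0.31 (adjusted p = 7.49e-04, edgeR), as it was with the trend over exon length removed (log2 0.31, adjusted p = 0.00244, edgeR), which made 3 of 5 genes called.

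**Figure D2:**
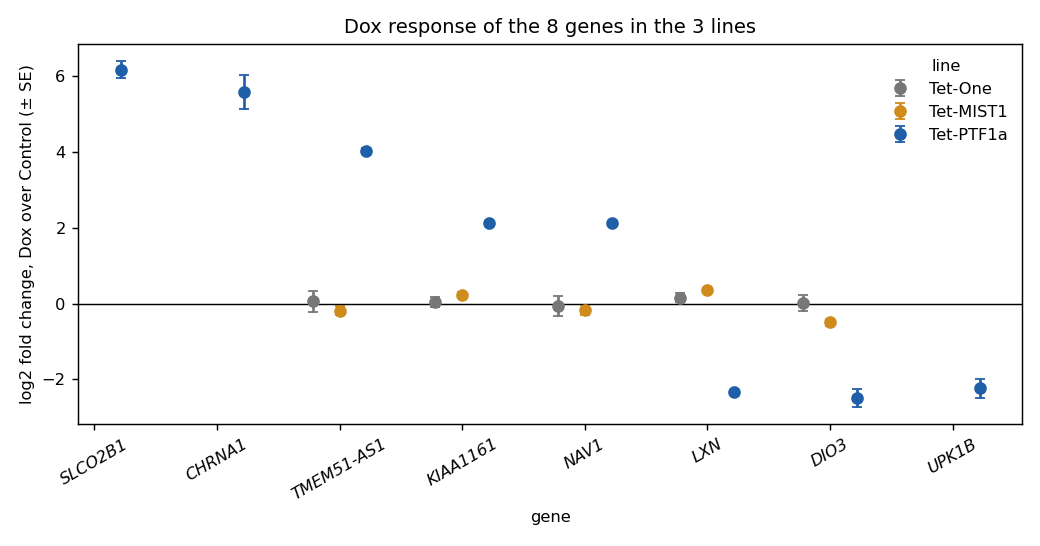
Log2 fold change of Dox over Control (edgeR, ± SE) of the 8 genes in the 3 lines. The Tet-PTF1a points lie between 2.13 and 6.16 for the 5 upward genes and between -2.49 and -2.23 for the 3 downward genes, and the Tet-One and Tet-MIST1 points of the 5 genes measured there lie between -0.50 and 0.35.

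Whether the 5 genes responded differently to Dox in Tet-MIST1 and Tet-One was asked of 16 libraries, with an interaction term. None of the 5 genes was called (0 of 5), where 1.66% of the 13879 genes tested were. DIO3 had the largest difference, -0.52 on the log2 scale (interval -0.90 to -0.13, adjusted p = 0.407, edgeR). For LXN the difference was 0.20 (interval -0.08 to 0.47, adjusted p = 0.716, edgeR), and without Tet-One Dox replicate 1 it was 0.35 (adjusted p = 0.0111, edgeR), which moved the count to 1 of 5. DIO3 alone of the 5 was at an unadjusted p under 0.05, and DESeq2 called none.

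The lines differed before any Dox. All 5 genes were called between Tet-MIST1 Control and Tet-One Control, but so were 80.2% of the 13825 genes tested, and 17.1% with a log2 difference of 1 or more. DIO3 was 2.74 higher in Tet-MIST1 on the log2 scale (SE 0.136, adjusted p = 3.22e-13, edgeR), 3.47 ± 0.108 against 0.478 ± 0.0784 CPM. TMEM51-AS1 was 2.53 higher (SE 0.149, adjusted p = 4.82e-12) and NAV1 1.85 higher (SE 0.105, adjusted p = 1.54e-09) by the same test. LXN was lower by a log2 difference of -1.10 (SE 0.0482, adjusted p = 1.57e-13). For each of these 4 genes the difference between the Controls was larger in size than its log2 change with Dox in Tet-One and in Tet-MIST1. Genes in general ran the same way. The median absolute log2 difference over all genes tested was 0.373 between the Controls, 0.0946 with Dox in Tet-One and 0.119 with Dox in Tet-MIST1.

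KIAA1161 differed by -0.14 between these Controls (SE 0.0539, adjusted p = 0.0241, edgeR). That call was lost with DESeq2 (adjusted p = 0.0505), without any 1 of the Tet-MIST1 Control libraries or Tet-One Control replicate 2 (adjusted p from 0.0587 to 0.0884), and with the trend over exon length removed the difference was 0.00.

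The states of the other lines can be placed on the range that PTF1a spanned. On the log2(CPM + 0.5) scale, 0% was set to Tet-PTF1a Control and 100% to Tet-PTF1a Dox. DIO3 in Tet-One lay at 88.5 ± 6.83% in Control and 88.4 ± 8.77% with Dox, so the uninduced empty line sat close to the PTF1a-induced state, and its libraries (0.384 to 0.560 CPM in Control) overlapped those of Tet-PTF1a Dox (0.183 to 0.4995 CPM). LXN in Tet-MIST1 lay at 54.9 ± 4.57% in Control and 39.6 ± 4.90% with Dox, and NAV1 in Tet-MIST1 at 43.1 ± 8.70% and 34.7 ± 13.9%. TMEM51-AS1 in Tet-MIST1 lay at 18.7 ± 3.20% and 14.4 ± 5.33%.

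KIAA1161 lay outside the range in every other group, between -54.9% and -45.1%, since it was at 14.4 to 16.8 CPM there and at 32.8 ± 0.875 CPM in Tet-PTF1a Control. TMEM51-AS1 in Tet-One lay at -33.2 ± 5.27% in Control and -32.5 ± 7.03% with Dox. NAV1 in Tet-One lay at -42.3 ± 8.43% in Control and -48.8 ± 28.7% with Dox. Its lowest library with Dox, at -91.8%, was replicate 1, which had the trend over exon length. LXN in Tet-One Dox lay at 2.00 ± 10.4%, and its range overlapped that of Tet-PTF1a Control only through replicate 1. That library, with the trend over exon length, was at 155 CPM. The others of its group were at 108 to 114 CPM, and Tet-PTF1a Control was at 124 to 127 CPM.

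**Figure D3:**
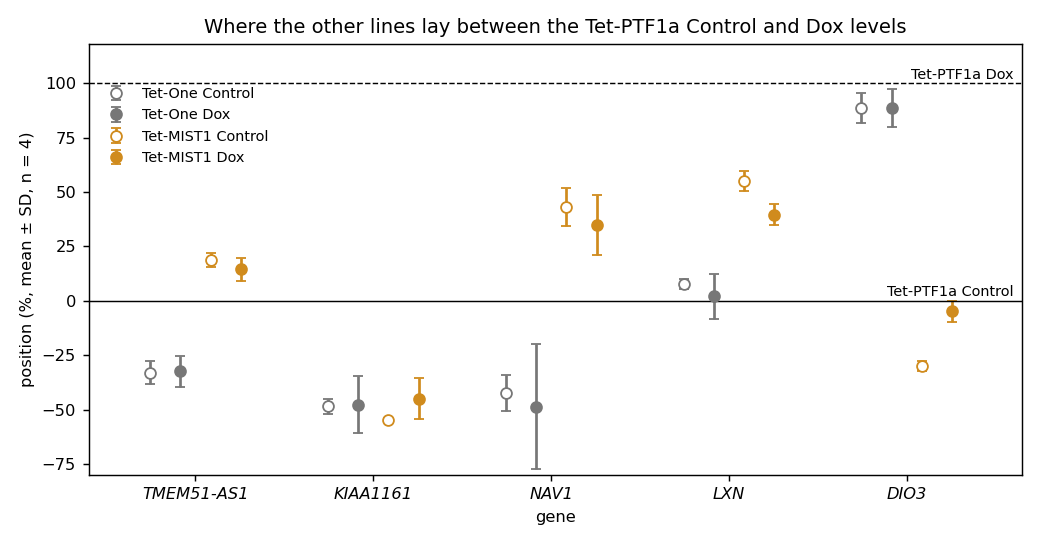
Position of the 4 groups of Tet-One and Tet-MIST1 between Tet-PTF1a Control (0%) and Tet-PTF1a Dox (100%) on the log2(CPM + 0.5) scale, mean ± SD over 4 libraries, for the 5 genes with a row in all 3 tables. DIO3 in Tet-One lies at 88.4 to 88.5%, and every other group lies at or below 54.9%.

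In order of level, TMEM51-AS1 ran from Tet-One Control and Tet-One Dox, which overlapped, over Tet-PTF1a Control to the overlapping Tet-MIST1 groups, and then 9.08-fold higher to Tet-PTF1a Dox. NAV1 had the same order of lines, and its Tet-PTF1a Dox level was 2.29-fold above Tet-MIST1 Control. KIAA1161 was lowest in Tet-MIST1 Control and overlapped between neighbouring groups from Tet-One Control to Tet-MIST1 Dox. Tet-PTF1a Control stood 1.95-fold above Tet-MIST1 Dox, the highest of these. LXN ran from Tet-PTF1a Dox over Tet-MIST1 Control and Tet-MIST1 Dox to Tet-One Control, with no overlap at any of these 3 steps. Tet-One Control overlapped Tet-One Dox, which in turn overlapped Tet-PTF1a Control only through its replicate 1. The summed level of the 8 ductal and epithelial markers was also lower in Tet-MIST1 Control (1788 to 1920 CPM) than in Tet-One Control (5215 to 6102 CPM), and its part in the levels of LXN was not tested. DIO3 overlapped in Tet-PTF1a Dox and the 2 Tet-One groups, and again in Tet-PTF1a Control and Tet-MIST1 Dox, and was highest in Tet-MIST1 Control.

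Neighbours of the 8 genes on the chromosome were read in the same fit. Of 10 tested in Tet-PTF1a within 100 kb, 6 rose and 1 fell, where 23.8% of all genes tested in this line were called higher and 24.4% lower. The most changed of the neighbours beside TMEM51-AS1 was TMEM51, whose listed start lies 68 bases away on the opposite strand. TMEM51 was at 27.5 ± 0.985 CPM in Tet-PTF1a Control and 88.0 ± 2.54 CPM with Dox, and it rose by 1.68 on the log2 scale (SE 0.0358, adjusted p = 1.54e-38, edgeR). It was also 1.36 higher in Tet-MIST1 Control than in Tet-One Control (50.7 ± 0.340 against 19.7 ± 0.888 CPM, adjusted p = 9.85e-16, edgeR), the direction of TMEM51-AS1. KAZN, which overlaps the far end of TMEM51-AS1 on the opposite strand, rose by 0.94 in Tet-PTF1a (SE 0.101, adjusted p = 3.14e-11, edgeR). Whether the counting used strand is not given in the sources used here, so reads of overlapping genes cannot be told apart.

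**Figure D4:**
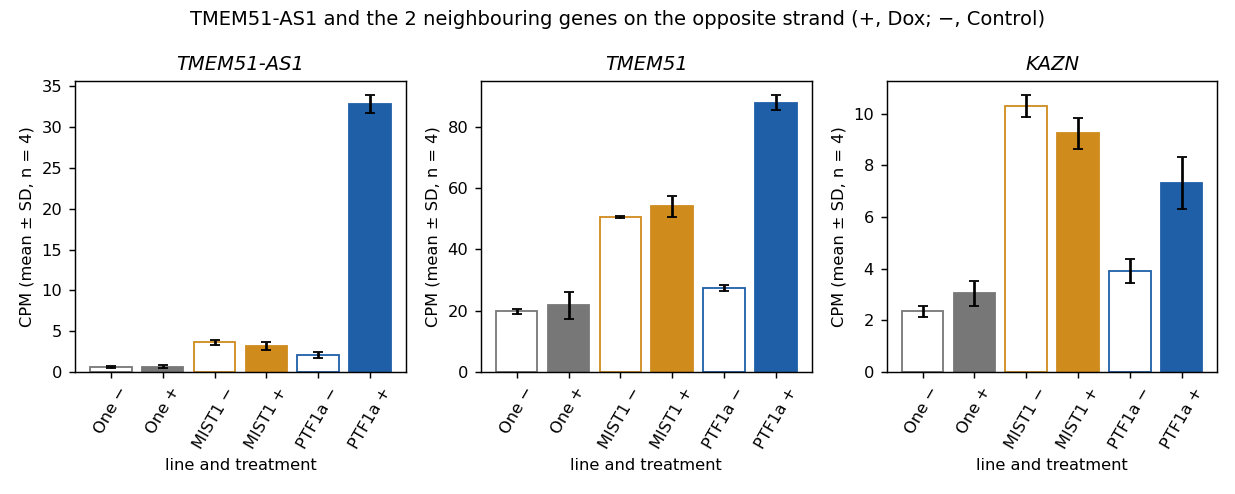
Level (CPM, mean ± SD, n = 4) of TMEM51-AS1 and its neighbours TMEM51 and KAZN in the 6 groups. TMEM51-AS1 and TMEM51 are highest in Tet-PTF1a Dox, at 32.8 and 88.0 CPM, while KAZN is highest in Tet-MIST1 Control, at 10.3 CPM.

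TPBGL, the gene after SLCO2B1 at a distance of 34505 bases, went from 0.865 ± 0.214 to 3.48 ± 0.307 CPM in Tet-PTF1a (log2 2.01, SE 0.167, adjusted p = 2.13e-15, edgeR). The neighbours of CHRNA1 rose by less, WIPF1 by 0.17 and CHN1 by 0.27 on the log2 scale, as did B4GALT4 beside UPK1B by 0.19. NUDT2 beside KIAA1161 was at a log2 difference of -0.04 (adjusted p = 0.537) and IPO9 beside NAV1 at -0.03 (adjusted p = 0.206) by edgeR. GFM1, which encloses LXN on the opposite strand, was at 131 ± 5.49 and 132 ± 1.64 CPM (log2 0.02, adjusted p = 0.658, edgeR), and MLF1 on its other side fell by 0.13. RARRES1, a relative of LXN beside it, was listed at 0 in all Tet-MIST1 libraries and at 0.881 ± 0.0943 CPM in Tet-One Control.

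DIO3 lies in the DLK1-DIO3 region, where protein-coding genes are read from the paternal chromosome and the non-coding RNAs MEG3, MEG8 and MEG9 from the maternal chromosome. In Tet-PTF1a all 3 of these RNAs fell with Dox, as 3 of the 3 genes of the region tested beside DIO3 (median log2 -1.35, against 0.00 over all genes, of which 48.2% were called). MEG3 went from 53.9 ± 3.57 to 21.0 ± 1.19 CPM (log2 -1.35, SE 0.0480, adjusted p = 3.34e-25, edgeR), MEG8 fell by 1.42 and MEG9 by 1.25. In Tet-MIST1, where DIO3 fell, MEG3 rose by 0.29 (adjusted p = 0.00591, edgeR). Between the Control groups MEG3 was lower in Tet-MIST1 than in Tet-One by a log2 difference of -1.25, where DIO3 was higher by 2.74. DIO3OS, on the opposite strand at 5675 bases before DIO3, was higher in Tet-MIST1 Control than in Tet-One Control by 2.28 on the log2 scale, at 0.599 ± 0.103 against 0.0836 ± 0.0240 CPM.

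Relatives and partners of the 8 genes were counted in Tet-PTF1a from 11 lists. Of 155 genes 89 were tested, and 32 rose and 35 fell, with a median log2 change of -0.01. That is 75.3% called, where 48.2% of all genes were, and in a single fit over all 24 libraries it was 39 of 82 (47.6%), where 23.2% of all 13519 genes were. The lists were chosen with earlier results of these data known. Genes low in Control could also pass the filter through a rise with Dox. These shares are therefore a description, and the difference between them was not tested.

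Other SLCO carriers did not follow SLCO2B1. Of 5 tested, 0 rose and 4 fell (median log2 -0.60), among them the prostaglandin carrier SLCO2A1 (-1.78), the liver-type carrier SLCO1B3 (-0.66) and SLCO3A1 (-0.60). Of 7 other nicotinic receptor subunits, 3 rose and 0 fell. The neuronal subunit CHRNA6 went from 0.460 ± 0.0962 to 4.08 ± 0.236 CPM (log2 3.02, SE 0.175, edgeR), while CHRNB1, the beta subunit that pairs with CHRNA1 in muscle, rose by 0.22 and CHRNA5 by 0.10. With a Control mean under the 0.5 CPM filter, CHRNA6 could enter the fit only with the help of Dox libraries, so no test is given for it.

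Of 5 genes for assembly of the neuromuscular junction, 3 rose and 2 fell. DOK7, an activator of the muscle kinase MUSK, rose by 1.73 on the log2 scale, acetylcholinesterase (ACHE) fell by 0.80 and agrin (AGRN) by 0.23. Of 19 skeletal muscle genes 4 were tested, and 3 rose and 0 fell. Cardiac and slow troponin C (TNNC1) rose by 2.44 from 0.629 ± 0.211 CPM, muscle creatine kinase (CKM) by 2.35 from 0.0839 ± 0.0589 CPM, and TNNT1 by 0.11. Most of the list was not tested. CKM was under the 0.5 CPM filter in Control, so it could enter the fit only through a rise with Dox. Over all genes tested in this line 23.8% were called higher.

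Around the remaining genes, relatives moved both ways. Of 11 navigators and microtubule plus-end proteins, 4 rose and 5 fell, with MAPRE2 up by 0.97, and NAV2, the closest relative of NAV1 named here, down (log2 -0.83). Of 12 glycosidases 2 rose and 4 fell, among them the lysosomal mannosidase MAN2B1, which fell by 0.16. Of 5 metallocarboxypeptidases and inhibitors 3 rose and 2 fell. AEBP1, a carboxypeptidase-like protein of the extracellular matrix, rose by 3.67 from 0.731 ± 0.0518 to 10.0 ± 0.753 CPM, while CPA4, an enzyme of the kind that latexin inhibits, fell by 1.14 and carboxypeptidase M (the gene CPM) by 0.80.

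Of 9 genes of thyroid hormone handling 3 rose and 4 fell. The thyroid hormone receptor THRB fell by 0.54. Of 8 uroplakins and urothelial genes 2 rose and 5 fell. Among these FOXA1 rose by 1.98 and GRHL3 by 1.19, and ELF3 fell by 1.00, all 3 of them epithelial transcription factors. Of 22 tetraspanins, the family of UPK1B, 10 rose and 7 fell, with TSPAN18 (log2 1.57) and CD82 (0.84) up and TSPAN1 (-1.18) down.

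**Figure D5:**
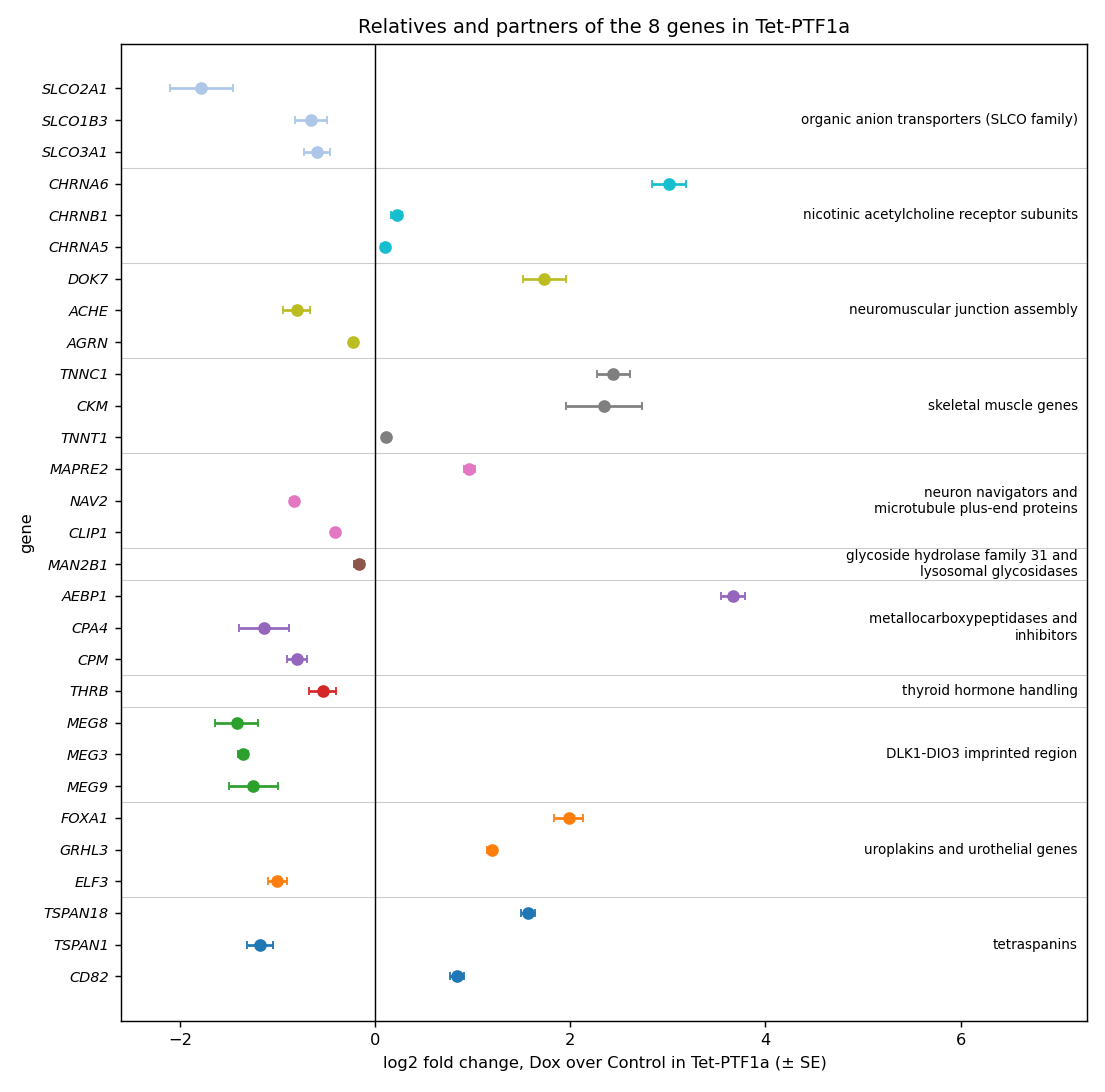
Log2 fold change of Dox over Control in Tet-PTF1a (edgeR, ± SE) for called genes with the largest changes, 1 to 3 in each of the 11 lists. The points run from -1.78 (SLCO2A1) to 3.67 (AEBP1), and in the SLCO and DLK1-DIO3 lists every named gene lies below 0.

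The genes whose levels ran most like those of each gene were found by the Pearson r of log2(CPM + 0.5) over the 24 libraries, among 13514 genes. These are descriptions, since the libraries form 6 groups of 3 lines, share their scaling and include the Tet-PTF1a libraries whose levels chose the genes. TMEM51-AS1 was closest to THBS1 (r = 0.981), the matrix protein thrombospondin 1, which went from 6.02 CPM in Tet-PTF1a Control to 36.5 CPM with Dox and was at 1.97 CPM in Tet-One Control, and then to THEMIS2 and the kinase LYN. KIAA1161 was closest to AGAP2 (r = 0.980), SERPINA3 and LRIG1, and NAV1 to SH2B3 (r = 0.968), IFFO2 and THEMIS2. LXN was closest to CLU (r = 0.948), the secreted chaperone clusterin, SCNN1A and TBCE. DIO3 was closest to DKK1 (r = 0.967), a secreted Wnt inhibitor, IFIT2 and HIST1H2AC. DKK1 was at 44.0 CPM in Tet-One Control, 325 in Tet-MIST1 Control, 209 in Tet-PTF1a Control and 53.5 with Dox in Tet-PTF1a.

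Among the 5 genes themselves, r was 0.9497 between TMEM51-AS1 and NAV1, 0.850 between TMEM51-AS1 and KIAA1161, and -0.931 between TMEM51-AS1 and LXN. The signs of these values follow in part from the choice of the genes as upward or downward in Tet-PTF1a. DIO3 ran apart from TMEM51-AS1 (r = -0.06), NAV1 (0.17) and LXN (0.07) over the same libraries, and from KIAA1161 (r = -0.41).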

How the data were processed

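RNA-Seq of 24 libraries from 3 Panc-1 lines was analysed. The authors aligned paired reads to hg19 with TopHat and deposited counts per gene without normalization. Their stated filter was more than 0.5 CPM in at least 4 libraries, which every gene listed for Tet-PTF1a met, whereas genes listed for Tet-One and Tet-MIST1 reached it in as few as 2 of these 16 libraries. HTSeq, DESeq and edgeR are named in the submitters' processing notes. The deposited tables also held the authors' CPM values, a scaled signal used here only as an alternative, and the authors' own fold changes and p-values, which were not used. The strand setting, the annotation and tool versions are not given in the sources used here. The Tet-One and Tet-MIST1 tables listed the same 13879 genes and 14053 were listed for Tet-PTF1a, and 20 names per table had been turned into dates.

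Counts were fitted in edgeR 4.0.16 (R 4.3.3) and tested by quasi-likelihood (TMM, robust, genes above 0.5 CPM in at least 4 libraries of a fit, Benjamini-Hochberg over all genes tested, called at FDR under 0.05), a method tested on simulated data. Log2 fold changes have a prior count of 2, and intervals are 95% from the SE. The authors call the 4 libraries of a group biological replicates, and the labels do not tie them to cultures. No 2 replicates agreed within sampling noise (36 pairs, chi-square per degree of freedom of at least 1.39). Alternatives were DESeq2 1.42.0, the exact test, other scalings and filters, a replicate block, all libraries in 1 fit and each library left out. The 8 genes and the lists of related genes were chosen with earlier results of these data known. Named were the 8 genes, up to 3 called genes per list with the largest absolute change, the nearest or overlapping neighbours within 100 kb and the 3 genes most like each gene, except that a few named by this rule are not reported here. Promoter windows held 250 bases before a RefSeq start.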

Additional observations from a re-analysis of the deposited data

Results flagged for a closer look

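Libraries that stood apart from the other 3 of their group, by the gap to the nearest relative to the range of the group, were found in 5 of 36 groups tested. A chance rate of about 1 in 20 would hold only for independent, continuous values. The groups shared libraries and some held few counts, so these rates cannot be compared. Of the 5 found, 3 were Tet-One Dox replicate 1, with KIAA1161 at 11.9 CPM (others 17.3 to 18.1), NAV1 at 2.75 CPM (others 6.87 to 7.03) and LXN at 155 CPM (others 108 to 114). This was also the library with a log2 trend of -0.381 per doubling of exon length, whose part in these values was not tested. SLCO2B1 was at 0.163 CPM in Tet-PTF1a Control replicate 2, where the others were at 0.0255 to 0.0479 CPM, a difference of 3 counts against 1 or 2. CHRNA1 was at 0.0255 CPM in Tet-PTF1a Control replicate 4, where the others were listed at 0, a difference of 1 count.

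LXN moved in opposite directions with Dox in Tet-MIST1, by 0.35 on the log2 scale, and in Tet-PTF1a, by -2.33, in every library. The difference was not tested, since the response in Tet-PTF1a chose the gene.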

How the results depend on the processing

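The number of genes called in Tet-One was 0 under every alternative run, out of 5 tested, or out of 4 where DIO3 did not pass the filter. In Tet-MIST1 it was 2 of 5, except that it was 3 with KIAA1161 both with the trend over exon length removed and without Tet-MIST1 Dox replicate 1. Between the Controls it was 5 of 5, or 4 where KIAA1161 was lost. Without Tet-One Dox replicate 1 the interaction called 1 of 5 in place of 0, so its count ran from 0 to 1 with a library left out. With all 24 libraries in 1 fit, 39 of 82 related genes were called in place of 67 of 89, and 23.2% of all genes in place of 48.2%, and the cause was not tested.

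Directions turned for small changes that were not called, and for KIAA1161 between the Controls. In Tet-One, leaving out 1 library gave log2 changes of -0.0703 to 0.121 for DIO3, -0.0175 to 0.159 for KIAA1161, -0.157 to 0.167 for NAV1 and -0.0847 to 0.236 for TMEM51-AS1, and the NAV1 interaction ran from -0.335 to 0.0162. DIO3 passed the filter of 0.5 CPM in 4 of the 8 such fits in Tet-One, and it was -0.0169 with library sizes in place of TMM. Removing the trend over exon length, an alternative chosen after seeing the data, gave -0.0607 for DIO3, -0.00672 for LXN and 0.0373 for NAV1 in Tet-One, and 0.00382 for KIAA1161 between the Controls. The call of KIAA1161 between the Controls was also lost with DESeq2, library sizes, the upper quartile and all 24 libraries (adjusted p from 0.0505 to 0.215), and in 5 of the 8 fits without 1 library.

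Replicate numbers were shared by the groups, but same-numbered libraries did not deviate together (12 pairs, correlations from -0.442 to 0.386, 2 of 12 best with their own number), and a replicate block left the counts of genes called at 0, 2 and 5 of 5. Deposited CPM put LXN at 129 in Tet-PTF1a Control and NAV1 at 53.2 with Dox in place of 125 and 51.5. A pseudocount of 0.1 CPM put TMEM51-AS1 in Tet-One Control at -42.1% and 1 CPM at -27.1%, in place of -33.2%. DIO3 and UPK1B with Dox rested on 4 to 12 counts per library, and CHRNA1 in Control on 1 count in all.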
